A study of Mus musculus with 24 samples.

Results

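Glypicans and syndecans are the cell surface proteoglycans that carry heparan sulfate, and their 10 mouse genes, Gpc1 to Gpc6 and Sdc1 to Sdc4, were followed across brown and white adipose tissue under 3 diets. The members are the genes whose platform symbol names a glypican or a syndecan. They were represented by 18 probes, 11 for the 6 glypicans and 7 for the 4 syndecans, of 45281 probes and 19053 named genes on the array. Gpc1 was selected on its measured level in the white fat arrays, which moved with diet, and the other members by name. Its diet differences in white fat, and differences built on them, are therefore given below as values with no test.

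The samples were 24 arrays of RNA from male C57Bl/6J mice, 4 for each of 6 groups. White fat (WAT, for white adipose tissue) and brown fat (BAT) were each taken from mice on a low-fat diet, on a high-fat diet with corn oil, and on a high-fat diet with the omega-3 fatty acids eicosapentaenoic and docosahexaenoic acid (EPA/DHA). No genotype, drug or transgene is named, so all groups are the same strain and differ by tissue and diet. The mice had been chosen to stand for their diet group by body weight and plasma lipids. Their age, the WAT depot and whether a BAT and a WAT array with the same number share a mouse are not given in the sources used here. The extraction text speaks of skeletal muscle, whereas the tissue labels say adipose tissue.

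Both families bear the same kind of sugar chain on different anchors. Glypicans are tied to the outer membrane by a glycolipid anchor, while syndecans cross the membrane and have a short cytoplasmic tail. The heparan sulfate chains bind growth factors, morphogens such as Wnt and Hedgehog proteins, chemokines and lipoprotein lipase, and in fat they are part of the surroundings in which adipocytes take up lipid and receive insulin and growth factor signals.

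Values are log2 expression with a floor near 7, and precision is limited by the number of arrays. They ran from 6.95 to 14.79, and mean correlations of an array with the others of its tissue ran from 0.969 (BAT low-fat replicate 2) to 0.992. The tissue labels were checked against marker genes. A score of 6 brown adipocyte markers (the mean log2 value of the list) ran from 10.79 to 12.05 in BAT and from 7.46 to 9.41 in WAT. The WAT maximum was EPA/DHA replicate 2, followed by corn oil replicate 4 at 8.41. The score of 8 skeletal muscle markers ran from 7.83 to 12.36 in BAT and from 7.36 to 7.66 in WAT. The score of 8 liver-type markers ran from 9.05 to 10.86 in WAT and from 7.34 to 8.12 in BAT, with albumin (Alb) at the floor in both. These are bulk samples, so fewer cells of a type and less RNA per cell cannot be told apart.

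Promoters are shown for 3 of the members with clear signal in both tissues, Gpc3 and Sdc3, which were higher in WAT, and Sdc4, which was higher in BAT. Those of Gpc1, Gpc6 and Sdc2 were not among the RefSeq promoters used here. Each is the 250 bases before the gene's start in RefSeq (GRCm38.p6), written along the gene's strand. The windows are chrX:52613975-52614224 (minus strand) for Gpc3, chr4:130792287-130792536 (plus strand) for Sdc3 and chr2:164443189-164443438 (minus strand) for Sdc4. Capitals mark GC boxes, searched as GGGCGG and its complement CCGCCC.
Gpc3: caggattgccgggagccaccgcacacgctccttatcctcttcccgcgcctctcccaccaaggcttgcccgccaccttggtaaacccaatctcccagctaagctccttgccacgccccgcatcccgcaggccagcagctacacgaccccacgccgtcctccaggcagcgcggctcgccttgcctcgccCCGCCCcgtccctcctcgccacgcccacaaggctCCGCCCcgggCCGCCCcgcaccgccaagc
Sdc3: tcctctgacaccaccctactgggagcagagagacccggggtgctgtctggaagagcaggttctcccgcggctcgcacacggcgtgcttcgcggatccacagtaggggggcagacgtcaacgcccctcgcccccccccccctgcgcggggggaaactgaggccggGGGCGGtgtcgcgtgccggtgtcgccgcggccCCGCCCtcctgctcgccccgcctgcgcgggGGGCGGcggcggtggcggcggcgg
Sdc4: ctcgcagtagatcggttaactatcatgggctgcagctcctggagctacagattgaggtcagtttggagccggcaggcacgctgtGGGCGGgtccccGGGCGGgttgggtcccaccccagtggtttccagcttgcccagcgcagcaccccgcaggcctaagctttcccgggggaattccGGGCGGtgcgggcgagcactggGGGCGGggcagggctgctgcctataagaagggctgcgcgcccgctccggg
Gpc3 held 3 GC boxes at a GC content of 71.6%, Sdc3 held 3 at 76.4% and Sdc4 held 4 at 68.0%. RefSeq promoters were given for 7 of the 10 members (Gpc2, Gpc3, Gpc4, Gpc5, Sdc1, Sdc3 and Sdc4), and all 7 held at least 1 GC box, against 32.7% of all 32851 promoters. A TATA box (TATAAA or TTTATA) was found in 1 of the 7, that of Gpc5, against 12.4% of all. GC content was above the median of all promoters, 52.4%, in 6 of the 7. A match is a description of these letters and says nothing of a factor. On the chromosomes, Gpc3 and Gpc4 are neighbours on X with 0 genes between them. Gpc5 and Gpc6 lie on 14, with 0 protein-coding genes among the 6 whose start lies between their starts.

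Of the 10 genes, Gpc1, Gpc3, Sdc2, Sdc3 and Sdc4 gave clear signal in both tissues. The brightest probe of 9 members in WAT and of 7 in BAT had a tissue mean above 7.11, the 40th percentile of all probes, which was the filter for testing. Gpc2, a glypican of developing neurons, was below it in both tissues and was not tested. Gpc5 and Sdc1 were below it in BAT. Gpc4, Gpc5, Gpc6 and Sdc1 never exceeded 7.69, so their differences are between values close to the floor.

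**Figure D1:**
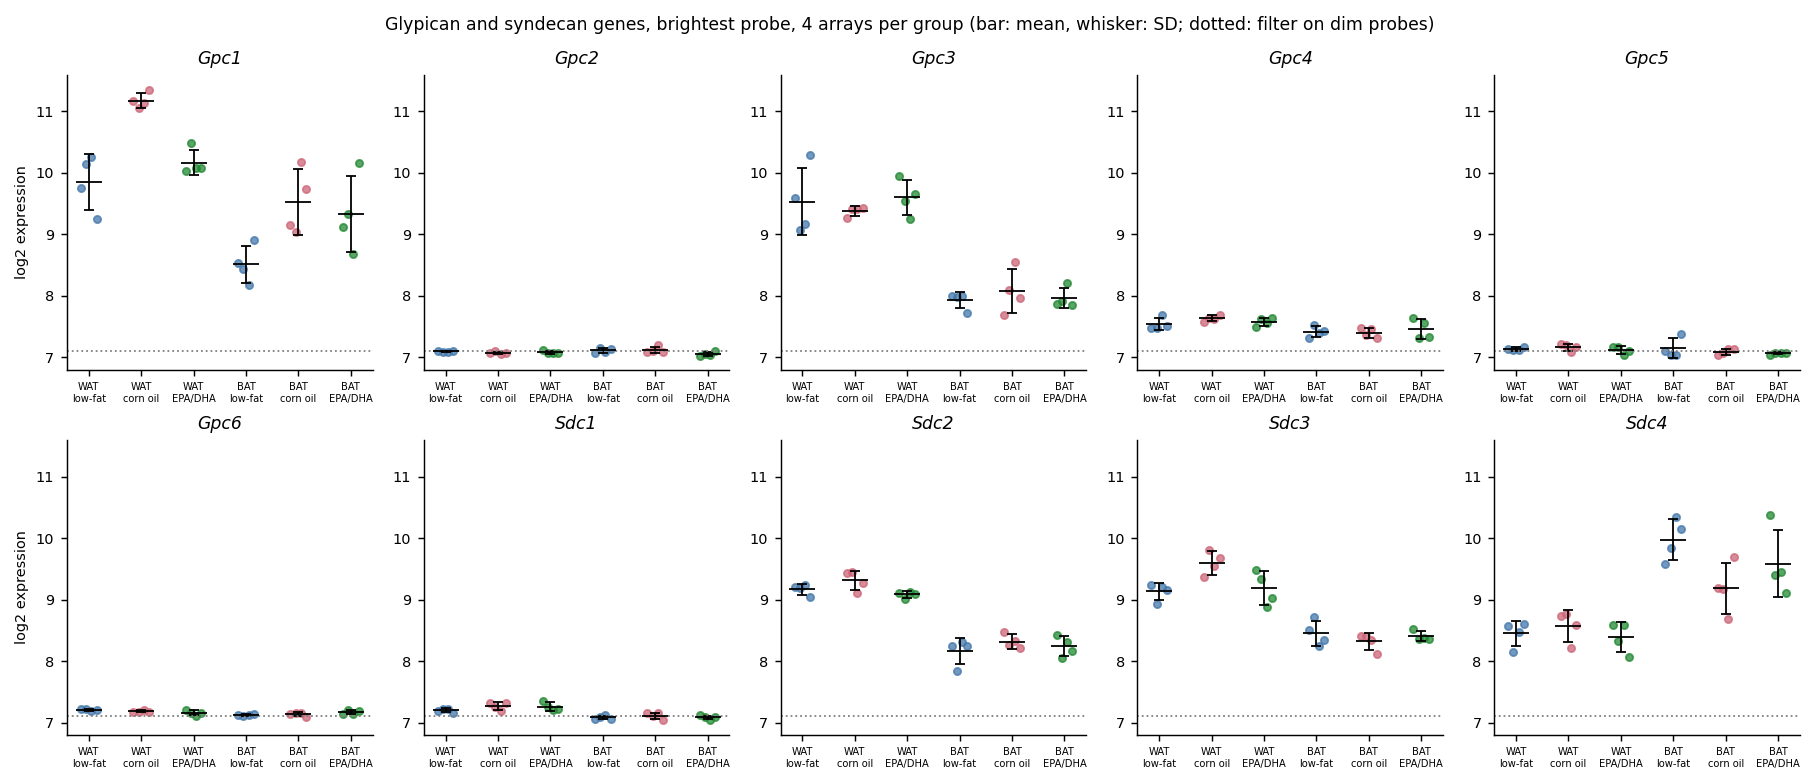
Log2 expression (y axis) of the brightest probe of each of the 10 genes in the 6 groups (x axis), with 1 point per array, the mean as a bar, the SD of 4 arrays as a whisker and the filter at 7.11 as a dotted line. Gpc1 in WAT on corn oil sits between 11.05 and 11.34, above every other group, and Gpc2 lies at the floor throughout.

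Gpc1, a widely expressed glypican, is the member chosen for its diet response. In WAT it read 9.75, 10.14, 10.25 and 9.24 on low-fat, 11.17, 11.05, 11.13 and 11.34 on corn oil, and 10.03, 10.48, 10.07 and 10.09 on EPA/DHA. The 4 corn oil arrays lay above all other WAT arrays, and the low-fat and EPA/DHA arrays overlapped. The corn oil mean exceeded the low-fat mean by 1.33 ± 0.19 (log2 difference ± SE, n = 4 arrays per group here and below), which is 2.51-fold. EPA/DHA differed from corn oil by -1.01 ± 0.19 and from low-fat by 0.32 ± 0.19. These differences chose the gene and are a description. Of 13349 genes above the filter in WAT, each by its brightest probe, 12.4% had corn oil and low-fat arrays without overlap in either direction. With corn oil higher it was 6.54%. For EPA/DHA and corn oil arrays the share in either direction was 10.2%. With 1 array left out, the EPA/DHA difference from low-fat ran from 0.12, without low-fat replicate 4, to 0.46. Without the 2 WAT arrays with raised brown adipocyte markers, the Gpc1 differences were 1.27 (corn oil minus low-fat) and -1.05 (EPA/DHA minus corn oil).

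BAT gave a look at Gpc1 in arrays that its choice did not use. It read 8.53, 8.43, 8.18 and 8.90 on low-fat, 9.16, 9.04, 10.18 and 9.74 on corn oil, and 9.13, 9.33, 8.69 and 10.16 on EPA/DHA. Every corn oil array was above every low-fat array, which held, in the same direction, for 2.26% of 13400 genes. The EPA/DHA arrays overlapped both other groups. The corn oil mean exceeded the low-fat mean by 1.02 ± 0.32 (95% interval 0.31 to 1.72). With limma this did not pass Benjamini-Hochberg adjustment over all 27168 kept probes (unadjusted p = 0.009, adjusted p = 0.423). EPA/DHA exceeded low-fat by 0.82 ± 0.32 (0.11 to 1.52, adjusted p = 0.922) and differed from corn oil by -0.20 ± 0.32 (-0.91 to 0.51, adjusted p = 0.999). With 1 array left out, the EPA/DHA difference from corn oil ran from -0.48, without EPA/DHA replicate 4, to 0.017, without corn oil replicate 3, and was 0.014 without EPA/DHA replicate 3. The EPA/DHA difference from low-fat ran from 0.54, without EPA/DHA replicate 4, to 1.03. The BAT diet comparisons share groups and are not independent of each other.

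Skeletal muscle markers varied in the same BAT arrays. The muscle score was 10.17, 8.91, 10.05 and 10.95 on low-fat, 10.17, 10.07, 12.12 and 11.94 on corn oil, and 9.80, 11.46, 7.83 and 12.36 on EPA/DHA, in replicate order, with all 8 markers above the filter. The arrays with the highest Gpc1 of the corn oil and EPA/DHA groups, replicate 3 and replicate 4, also had the highest muscle scores. Across the 12 BAT arrays, Gpc1 and the muscle score had Pearson r = 0.787 and Spearman rho = 0.769 (permutation p = 0.0028 and 0.0054, adjusted p = 0.084 and 0.135 over 150 relations of members to marker scores). The r was 0.876 within diets and 0.808 without the 2 arrays farthest from the median score. Here and below, the permutations shuffled the 12 arrays across diets, and the r within diets was not tested. With the muscle score as a covariate, chosen after seeing the data, the corn oil difference was 0.69 ± 0.17 (adjusted p = 0.316) and the EPA/DHA difference from low-fat 0.71 ± 0.16 (adjusted p = 0.566). Fibroblast progenitor markers had r = 0.852 with Gpc1 (adjusted p = 0.0295) and rho = 0.811 (adjusted p = 0.0866), and r = 0.597 without the 2 farthest arrays.

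Ordered by group mean, Gpc1 ran from BAT low-fat (8.51) through BAT EPA/DHA (9.33), BAT corn oil (9.53), WAT low-fat (9.85) and WAT EPA/DHA (10.17) to WAT corn oil (11.18). The arrays of neighbours in that order overlapped except for WAT EPA/DHA and WAT corn oil. WAT exceeded BAT by 1.34 on low-fat, 1.65 on corn oil and 0.84 on EPA/DHA (SE 0.28 each). The arrays of the 2 tissues did not overlap on low-fat and corn oil and overlapped on EPA/DHA. Over the 12487 genes above the filter in both tissues, such separation was counted in either direction. It was seen for 42.3% on low-fat, 44.1% on corn oil and 40.6% on EPA/DHA, which is the background for the overlaps within a diet given below. The corn oil minus low-fat difference was larger in WAT than in BAT by 0.31 ± 0.39, and the EPA/DHA minus corn oil difference was more negative in WAT, by -0.81 ± 0.39. With 1 array left out the first ran from 0.11, without WAT low-fat replicate 4, to 0.53, without BAT corn oil replicate 3, and the second from -1.02 to -0.53, the latter without BAT EPA/DHA replicate 4.

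The genes most like Gpc1 over the 12 WAT arrays, by Pearson r among 13348 other genes and with no test, were Glb1 (r = 0.976), Lipf (0.969), Got1l1 (0.963), Kifc1 (0.955) and Tph2 (0.955). Glb1 encodes the lysosomal beta-galactosidase, Lipf the gastric lipase and Tph2 a tryptophan hydroxylase. Within diets, their r with Gpc1 ran from 0.762 to 0.867. Kifc1, with WAT group means from 7.15 to 7.23, and Got1l1, with 7.34 to 7.59, lay close to the floor. Over the 12 BAT arrays the list was Epdr1 (0.961), Ak1 (0.946), Fhl1 (0.945), Lrrc14b (0.939) and Zfp385b (0.937), among 13399 genes. Ak1, an adenylate kinase, and Fhl1, a LIM domain protein, are both abundant in skeletal muscle. Zfp385b, with BAT group means from 7.08 to 7.21, lay close to the floor. No gene stood on both lists of 5. Of the other members, Sdc3 in WAT was closest to Gpc1, at r = 0.666, but at r = -0.03 within diets. Gpc3 in WAT had r = -0.539 with Gpc1, and -0.80 within diets.

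Gpc3, a glypican that binds Hedgehog proteins and restrains growth, was higher in WAT on each diet. Its brightest probe in BAT read 7.99, 7.99, 8.003 and 7.73 on low-fat, 7.69, 8.10, 8.55 and 7.97 on corn oil, and 7.87, 7.92, 8.21 and 7.86 on EPA/DHA. In WAT it read 9.60, 9.07, 9.18 and 10.29 on low-fat, 9.26, 9.42, 9.41 and 9.43 on corn oil, and 9.95, 9.54, 9.25 and 9.66 on EPA/DHA. Within each diet, no WAT array overlapped a BAT array. WAT exceeded BAT by 1.61 ± 0.21 on low-fat (limma, adjusted p = 2.44e-06), by 1.30 on corn oil and by 1.64 on EPA/DHA. A second Gpc3 probe gave 1.39, 0.91 and 1.10 and also passed on each diet, while the third stayed at the floor. Diet differences of the brightest probe ran from -0.15 to 0.22 and passed in neither tissue. The second probe was lower in WAT on corn oil than on low-fat by a difference of -0.34 ± 0.15, with an adjusted p of 0.283.

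Gpc4, a glypican that adipocytes release and that has been tied to insulin signalling, lay between 7.31 and 7.69 at its brightest probe. Its other probe was below the filter in both tissues, with group means from 7.04 to 7.08. On low-fat the means were 7.53 in WAT and 7.42 in BAT, a difference of 0.12 ± 0.07 that did not pass (adjusted p = 0.188). On corn oil the means were 7.63 and 7.40 and the difference, 0.23 ± 0.07, passed (adjusted p = 0.0106). On EPA/DHA it was 0.12 ± 0.07 (adjusted p = 0.179). Whether the tissue difference itself depended on diet was tested as an interaction, 0.11 ± 0.10 for corn oil against low-fat, which did not pass (adjusted p = 0.713). Gpc6 was higher in WAT on low-fat by 0.08 (adjusted p = 0.00733), with both means, 7.21 and 7.13, near the floor. It did not pass on corn oil or EPA/DHA. Gpc5 passed in no WAT diet comparison.

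Sdc2, the syndecan of mesenchymal cells, was about 1 log2 unit higher in WAT. In BAT it read 8.24, 7.84, 8.30 and 8.25 on low-fat, 8.48, 8.25, 8.32 and 8.22 on corn oil, and 8.42, 8.06, 8.32 and 8.17 on EPA/DHA. In WAT it read 9.20, 9.20, 9.24 and 9.04 on low-fat, 9.43, 9.45, 9.11 and 9.27 on corn oil, and 9.11, 9.01, 9.13 and 9.09 on EPA/DHA. Within each diet, every WAT array was above every BAT array. WAT exceeded BAT by 1.01 ± 0.10 on low-fat (adjusted p = 3.52e-08), 1.0 on corn oil and 0.85 on EPA/DHA. In WAT, EPA/DHA differed from corn oil by -0.23 ± 0.07, with overlapping arrays and an adjusted p of 0.146. Of the 8 liver-type markers, 5 were above the filter in WAT. The score of all 8 had r = 0.738 with Sdc2 in WAT and rho = 0.783 (permutation, adjusted p = 0.132 and 0.124). With that score as a covariate, chosen after seeing the data, the EPA/DHA difference from corn oil was -0.16 ± 0.06 (SE; limma adjusted p = 0.214).

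Sdc3, a syndecan best known from neurons, was also higher in WAT on each diet. In WAT it read 9.24, 8.94, 9.21 and 9.16 on low-fat, 9.36, 9.81, 9.54 and 9.68 on corn oil, and 9.49, 9.34, 8.88 and 9.03 on EPA/DHA. In BAT it read 8.50, 8.71, 8.24 and 8.34 on low-fat, 8.40, 8.41, 8.35 and 8.12 on corn oil, and 8.53, 8.36, 8.37 and 8.36 on EPA/DHA. The tissues did not overlap on any diet, and in WAT every corn oil array was above every low-fat array, as for 6.54% of genes. WAT exceeded BAT by 0.69 ± 0.12 on low-fat (adjusted p = 1.4e-04), by 1.28 on corn oil (adjusted p = 4.89e-08) and by 0.78 on EPA/DHA. In WAT, corn oil exceeded low-fat by 0.46 ± 0.14 (95% interval 0.16 to 0.76, unadjusted p = 0.0065), which did not pass (adjusted p = 0.111), and EPA/DHA differed from corn oil by -0.41 ± 0.14 (adjusted p = 0.173). With a trended and robust variance prior the corn oil difference did pass, at an adjusted p of 0.0499. These values are from the brightest Sdc3 probe. The other was below the filter in both tissues, with group means from 7.04 to 7.10.

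Macrophage markers moved with Sdc3 in WAT. Their score, the mean of 10 genes of which 9 were above the filter, was 9.48, 9.28, 9.38 and 9.53 on low-fat, 9.54, 9.93, 9.70 and 9.81 on corn oil, and 9.82, 9.79, 9.17 and 9.29 on EPA/DHA. Both Sdc3 and the score were higher in replicates 1 and 2 than in replicates 3 and 4 of the EPA/DHA group. Across the 12 arrays r was 0.933 (permutation p = 1e-05, the smallest that 100000 resamples can give, adjusted p = 0.0015) and rho was 0.93 (permutation p = 6e-05, adjusted p = 0.009). The r was 0.944 within diets and 0.885 without the 2 farthest arrays. With the macrophage score as a covariate, chosen after seeing the data, the corn oil difference of Sdc3 was 0.17 ± 0.06 (adjusted p = 0.184) and the EPA/DHA difference from corn oil -0.21 ± 0.05 (adjusted p = 0.0879). With the same covariate the Gpc1 differences in WAT, given with no test, were 1.36 (corn oil minus low-fat) and -1.03 (EPA/DHA minus corn oil). The part of macrophages in the diet differences of Sdc3 and Gpc1 was not tested.

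Sdc4, a widespread syndecan that works with integrins at focal adhesions and binds protein kinase C alpha, ran the other way. In BAT it read 9.58, 9.84, 10.34 and 10.15 on low-fat, 9.19, 9.18, 8.68 and 9.69 on corn oil, and 10.38, 9.40, 9.46 and 9.11 on EPA/DHA. In WAT it read 8.57, 8.16, 8.47 and 8.61 on low-fat, 8.74, 8.76, 8.21 and 8.59 on corn oil, and 8.59, 8.32, 8.58 and 8.07 on EPA/DHA. The tissues did not overlap on low-fat and EPA/DHA, and overlapped on corn oil through 1 BAT array, replicate 3. WAT minus BAT was -1.52 ± 0.24 on low-fat (adjusted p = 2.79e-05, 2.88-fold higher in BAT) and -1.20 on EPA/DHA (adjusted p = 4.96e-04). On corn oil it was -0.61 ± 0.24 and did not pass (adjusted p = 0.054). Without BAT corn oil replicate 3 that difference was -0.78 and passed (adjusted p = 0.0184). The corn oil mean in BAT lay below the low-fat mean by a difference of -0.79 ± 0.28 (95% interval -1.42 to -0.17, unadjusted p = 0.0174), with overlapping arrays and an adjusted p of 0.484.

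Brown adipocyte markers moved with Sdc4 in BAT. The score of 6 markers, all above the filter, was 11.47, 11.44, 12.05 and 11.59 on low-fat, 11.24, 11.13, 10.79 and 11.43 on corn oil, and 11.64, 11.28, 11.10 and 11.27 on EPA/DHA. BAT corn oil replicate 3 had both the lowest score and the lowest Sdc4. Across the 12 arrays r was 0.906 (permutation p = 5e-05, adjusted p = 0.00375) and rho 0.881 (permutation p = 3.8e-04, adjusted p = 0.019), with r = 0.848 within diets and 0.873 without the 2 farthest arrays. Sdc4 and the macrophage score in BAT had r = -0.825 (adjusted p = 0.0409) and rho = -0.874 (adjusted p = 0.019). Of the 150 relations, 4 passed an adjusted p of 0.05 for r. They were those of Sdc3 with macrophage, Sdc4 with brown adipocyte and with macrophage, and Gpc1 with fibroblast progenitor markers. The part of other cells in the levels of Sdc4 was not tested.

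**Figure D2:**
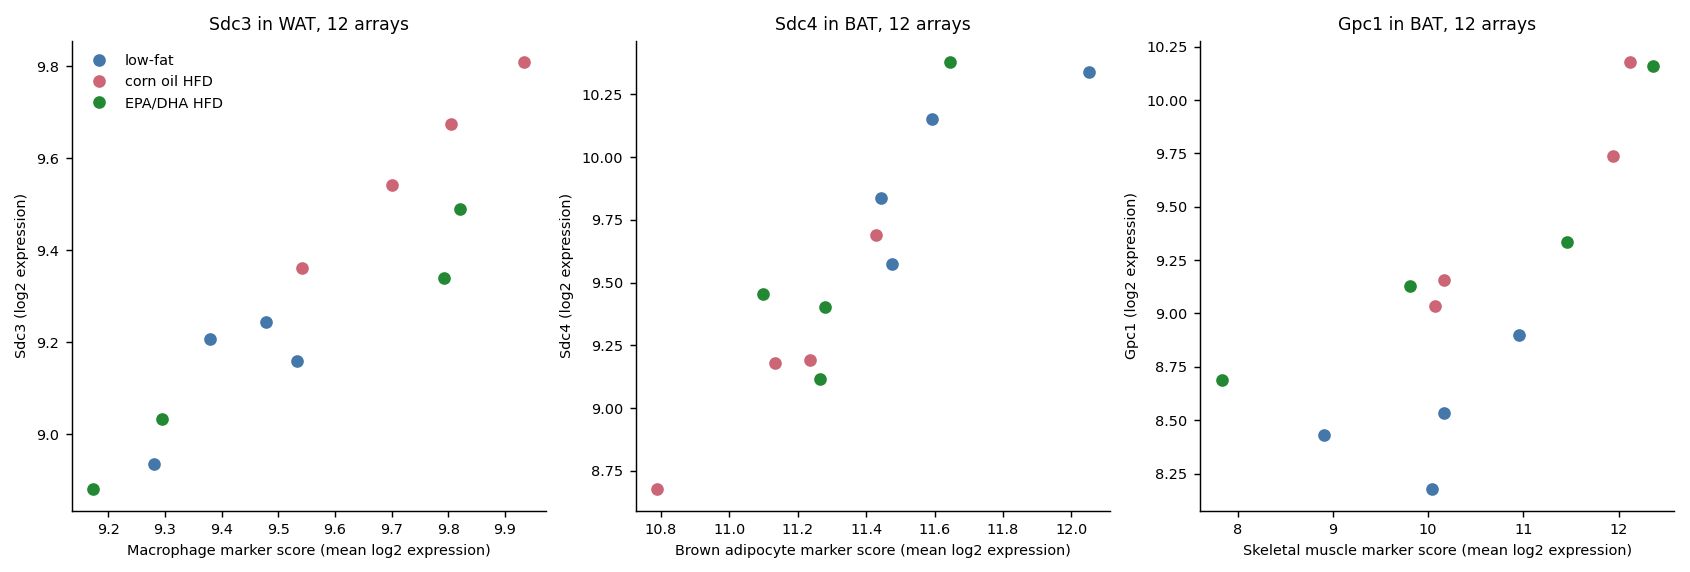
Log2 expression of Sdc3 in WAT, Sdc4 in BAT and Gpc1 in BAT (y axes) against the mean log2 value of macrophage, brown adipocyte and skeletal muscle markers in the same array (x axes), with 1 point for each of 12 arrays coloured by diet. The points rise together in each panel, with r of 0.933, 0.906 and 0.787. By permutation, the adjusted p for r was 0.0015, 0.00375 and 0.084, so Gpc1 with muscle markers did not pass. Gpc1 with fibroblast progenitor markers, at r = 0.852 (adjusted p = 0.0295), is not drawn.

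Sdc1, a syndecan of epithelia and plasma cells, stayed close to the floor in both tissues. Its brightest probe had means of 7.20 in WAT and 7.08 in BAT on low-fat, a difference of 0.12. The difference was 0.16 on corn oil and 0.17 on EPA/DHA. No p-value is given for them, since the probe was above the filter in WAT alone. Between tissues, Sdc1 entered only the planned count given below, from which nothing is read. A second Sdc1 probe gave 0.05, 0.06 and 0.03. The third was below the filter in both tissues. Its WAT and BAT means were 7.07 and 7.12 on low-fat, 7.09 and 7.10 on corn oil, and 7.10 and 7.08 on EPA/DHA.

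Members other than Gpc1 were counted where their brightest probe was above the filter in both tissues, which left 6, namely Gpc3, Gpc4, Gpc6, Sdc2, Sdc3 and Sdc4. Of these, 5 differed between tissues on low-fat, 4 higher and 1 lower in WAT, against 46.9% of the 12487 genes above the filter in both. On corn oil 4 of 6 passed, all higher in WAT, against 43.2% of genes. On EPA/DHA 4 of 6 passed, 3 higher and 1 lower, against 40.5%. Gpc3, Sdc2 and Sdc3 passed on each of the diets and Sdc4 on low-fat and EPA/DHA. The counts also hold Gpc6 on low-fat and Gpc4 on corn oil, which are differences between means close to the floor. With Sdc1 and Gpc5, which entered through WAT alone and were part of the planned count, 6, 5 and 5 of 8 passed, and nothing is read from that count. The median difference of the 6 members was 0.40, 0.61 and 0.45, and that of the 12487 genes was within 0.01 of 0. By direction, 3035, 2896 and 2650 of the 12487 genes passed as higher in WAT, and 2823, 2503 and 2401 as lower.

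**Figure D3:**
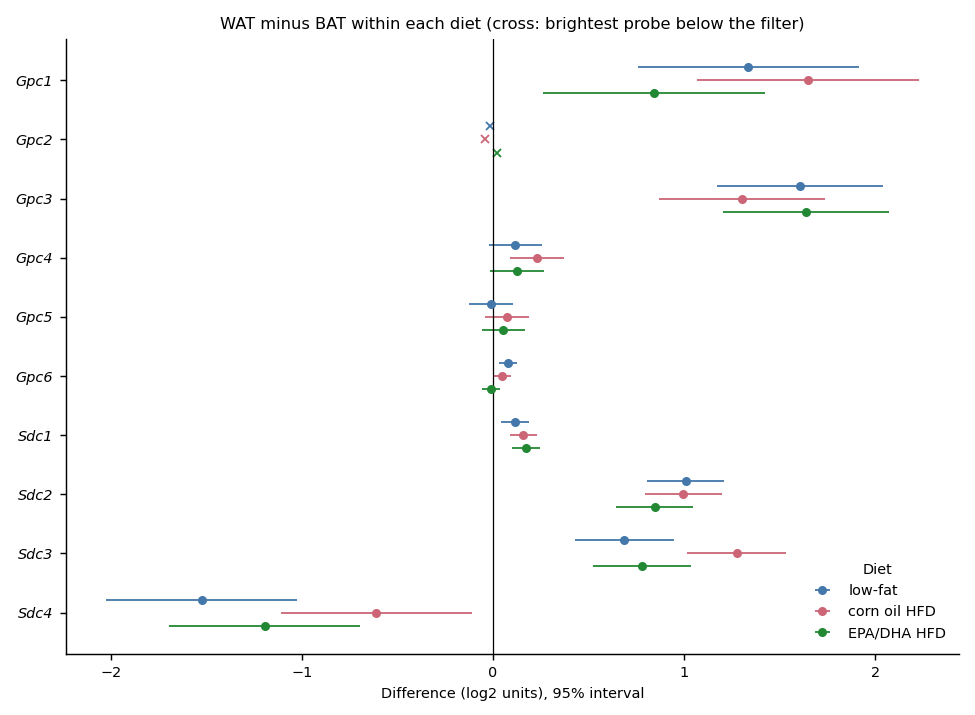
WAT minus BAT difference (x axis, log2 units, with its 95% interval) of the brightest probe of each gene (y axis) on the 3 diets, with crosses for Gpc2, which was below the filter. Gpc5 and Sdc1 were above it in WAT alone. Gpc3, Sdc2 and Sdc3 lie to the right of 0 on each diet and Sdc4 to the left, between -1.52 and -0.61.

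No tested member passed in any diet comparison with limma. In WAT, 0 of 8 passed for corn oil against low-fat, for which 3.87% of genes passed. At an unadjusted p under 0.05 it was 1 of 8 (Sdc3), against 19.7% of genes. For EPA/DHA against corn oil 0 of 8 passed (2.34% of genes), and 2 of 8 (Sdc2 and Sdc3, both lower) had an unadjusted p under 0.05, against 17.6%. For EPA/DHA against low-fat these counts were 0 and 0 of 8, against 0.03% and 9.06% of genes. In BAT 0 of 7 passed for corn oil against low-fat (0% of genes), and 2 of 7 (Gpc1 higher, Sdc4 lower) had an unadjusted p under 0.05, against 9.1%. For EPA/DHA against low-fat the counts were 0 and 1 (Gpc1) of 7, against 0.00746% and 4.77%. For EPA/DHA against corn oil they were 0 and 0, against 0% and 4.99%.

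The difference of a diet effect between the tissues passed for 0 of the 6 members above the filter in both tissues, in either contrast. For corn oil against low-fat, 0.649% of genes passed, and 2 of 6 members had an unadjusted p under 0.05, against 14% of genes. They were Sdc3, at 0.59 ± 0.18 (adjusted p = 0.156), and Sdc4, at 0.91 ± 0.34 (adjusted p = 0.28), both more positive in WAT. For EPA/DHA against corn oil 0.248% of genes passed, and Sdc3 alone, at -0.50 ± 0.18 (adjusted p = 0.448), had an unadjusted p under 0.05, against 8.72% of genes.

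**Figure D4:**
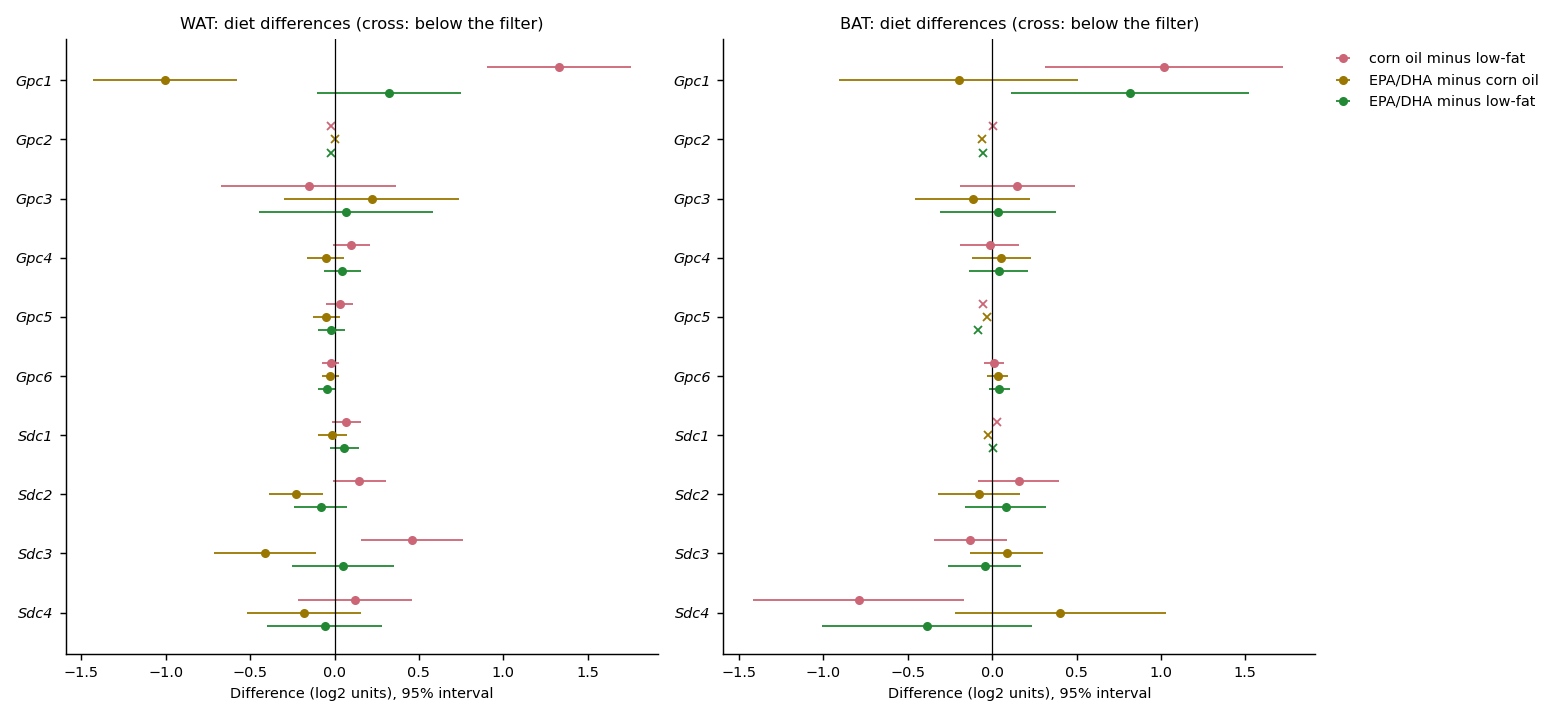
Diet differences (x axes, log2 units, with 95% intervals) of the brightest probe of each gene (y axes) in WAT on the left and BAT on the right, with crosses for probes below the filter. Gpc1 has the largest difference in each panel, 1.33 in WAT and 1.02 in BAT for corn oil minus low-fat. It was chosen for its diet response in WAT, and its BAT difference did not pass adjustment.

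The enzymes that build, trim and break down the chains were followed as 5 lists. In the diet comparisons 1 gene of these lists passed, Sgsh, a lysosomal sulfatase of heparan sulfate, whose WAT means were 7.40 on corn oil and 7.58 on EPA/DHA. The difference was 0.18 ± 0.04 (limma, adjusted p = 0.0483), between means close to the floor. In that comparison 1 of 8 tested breakdown genes passed, against 2.34% of all genes. None passed of 10 for chain start and polymerisation, 12 for chain modification, 5 other proteoglycans and 13 for core protein release and partners.

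Between tissues the lists, too, were counted over genes above the filter in both, and on low-fat 46.9% of all such genes passed. By direction, 3035 of these 12487 genes were higher in WAT and 2823 lower. The shares of the lists that passed were 50%, 70%, 50%, 60% and 66.7%, in the order below, so chain start and breakdown lay near the share of all genes. Of 10 genes for chain start and polymerisation 3 were higher in WAT and 2 lower, with a list median of 0.02. Extl3, an initiator of the chain, was higher by 1.61 ± 0.08 and the polymerase gene Ext1 by 0.75, while the linker enzymes B3gat3 and B3galt6 differed by -0.48 and -0.33. Of 10 chain modification genes 7 were higher and 0 lower (median 0.35), among them the extracellular sulfatases Sulf1 (0.76) and Sulf2 (1.59) and the sulfotransferases Hs3st1 (0.68) and Hs2st1 (0.37). Of 8 breakdown genes 4 were higher and 0 lower (median 0.23), namely Gusb (1.20), Ids (0.92), Naglu (0.46) and Hgsnat (0.34), all lysosomal enzymes.

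The remaining lists held other carriers of heparan sulfate and the proteins that release or bind the cores. Of 5 other proteoglycan genes 3 were higher in WAT and 0 lower (median 0.70). They were Col18a1 (2.66 ± 0.18) and Hspg2, which encodes perlecan (1.47), both of basement membranes, and Tgfbr3, a receptor for transforming growth factor beta (0.70). Of 12 genes for core protein release and partners 6 were higher and 2 lower (median 0.16). The proteases Mmp14 (1.73), Mmp2 (1.60) and Mmp9 (0.87) were higher in WAT, and the proprotein convertase Furin, which cleaves glypican precursors, was lower, at -0.68. Macrophage and fibroblast progenitor scores were also higher in WAT than in BAT, 9.17 to 9.93 against 7.63 to 8.11 and 10.33 to 10.73 against 8.55 to 9.41, and their part in these differences was not tested. On corn oil the counts were 3 and 1 of 10, 6 and 0 of 10, 5 and 0 of 8, 4 and 0 of 5, and 4 and 1 of 12 (higher and lower, lists in the same order), against 43.2% of genes. On EPA/DHA they were 6 and 2, 6 and 0, 5 and 0, 4 and 1, and 6 and 2, against 40.5%.

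**Figure D5:**
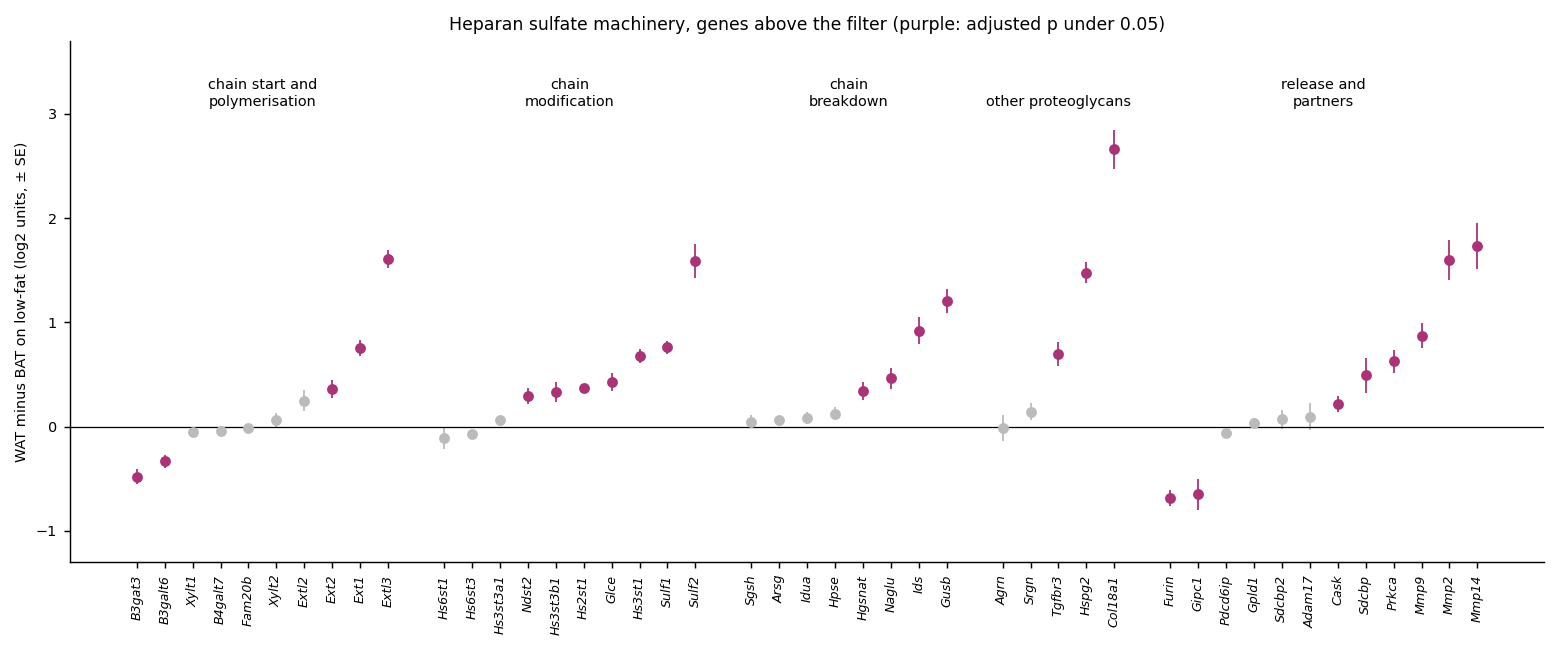
WAT minus BAT difference on the low-fat diet (y axis, log2 units, with ± SE) of the genes of the 5 heparan sulfate lists above the filter in both tissues (x axis, ordered by difference within a list), purple where the adjusted p is under 0.05. Col18a1 is highest at 2.66 and Furin lowest at -0.68.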

How the data were processed

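Expression of 45281 probes was measured on 24 Illumina mouse arrays. The authors deposited 1 value table, per the file headers, of log2 expression per probe, made with lumi 2.18.0 per the submitters' processing notes. Ranked from low to high, the values of the 24 arrays matched to within 0.0069, as after quantile normalisation, so a change in total signal cannot be seen. Plain log2 and lumi's variance-stabilised scale are both possible, and which was used is not given in the sources used here, so differences near the floor can be understated. A symbol was given for 34885 probes (34818 matched RefSeq, GRCm38.p6), several for 18 and none for 10378. A gene is represented by its brightest probe, judged by the mean of all arrays.

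Diets were compared within a tissue (12 arrays), and tissues and interactions over 24 arrays, with limma 3.58.1 in R 4.3.3 (two-sided moderated test, 1 mean per group). Probes with a tissue mean above the 40th percentile were kept, 27168 per tissue and 29493 in either, and p-values were adjusted over them by the Benjamini-Hochberg method at 0.05. Relations to marker scores were tested by two-sided permutation of the 12 arrays of a tissue, with 100000 resamples. Arrays were shuffled without regard to diet, so these p-values mix differences between diets with the spread within them. Gpc1 was tested in BAT alone, although tests between tissues had been planned for it. Counts and backgrounds are over genes, each by its brightest probe, and between tissues over genes above the filter in both, a limit added after seeing the data. All 10 members, the heparan sulfate genes with the smallest p (up to 4 per list) and the 5 genes most like Gpc1 are named by rule. The members and lists were chosen with earlier results of these data known. Nothing states that the arrays of a group are separate mice beyond the count of 4 mice per diet, so p-values measure the spread between these samples. The pipeline was tested on simulated data. Alternatives were the filter, normalisation, variance prior, array weights, probe, replicate block, 1 fit over all arrays, leaving out each array, and, added after seeing the data, marker scores as covariates and 2 WAT arrays left out.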

Additional observations from a re-analysis of the deposited data

Results flagged for a closer look

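Of 60 groups of 4 arrays (10 genes in 6 groups), 8 held 1 array far from the other 3. For independent normal values chance gives about 1 in 20. The 10 genes were read on the same arrays, some at the floor, so no excess over chance is read from the 8. Gpc1 in WAT EPA/DHA replicate 2 was at 10.48, with the others between 10.03 and 10.09, and this array also had the highest brown adipocyte score in WAT. Gpc2 in BAT corn oil replicate 3 was at 7.193 (others 7.082 to 7.094) and Gpc6 in WAT corn oil replicate 3 at 7.206 (others 7.175 to 7.178), both near the floor. Gpc3 in BAT low-fat replicate 4 was at 7.727 (others 7.987 to 8.003), and in WAT corn oil replicate 1 at 9.258 (others 9.413 to 9.428). Gpc4 in WAT low-fat replicate 3 was at 7.68 (others 7.474 to 7.508). Sdc2 in BAT low-fat replicate 2, the array with the lowest mean correlation in BAT, was at 7.845 (others 8.243 to 8.304). Sdc3 in BAT EPA/DHA replicate 1 was at 8.53 (others 8.359 to 8.371). None of these arrays was left out of the values above.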

How the results depend on the processing

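The count of members that passed stayed within 1.5 times its value in each of the 11 comparisons under every alternative run, except that under the trended and robust prior it was 1 (Sdc3) for corn oil against low-fat in WAT. Leaving out each array in turn gave 0 to 0 members in the diet and interaction contrasts, 6 to 6 between tissues on low-fat, and 5 to 6 on corn oil and on EPA/DHA. These counts are the planned ones, with Sdc1 and Gpc5. Of the tested members' values under all alternatives, 1517 kept their direction and side of the threshold, 6 came to pass, and 3 no longer passed. The 3 were Sdc1 between tissues at its second probe, from which nothing is read. Another 55 changed sign, 39 of them with 1 array left out, and none of these passed before or after. The 153 values of Gpc1 with no test moved by less than 1 SD. Sdc4 between tissues on corn oil passed with the 60th percentile filter (adjusted p = 0.0381) and with the replicate block (0.0165). Gpc4 between tissues passed with array weights on low-fat (0.17, adjusted p = 0.0358) and without BAT EPA/DHA replicate 1 on EPA/DHA (0.19, adjusted p = 0.0389). The cause was not tested.

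Whether the replicate numbers pair the samples is not given, and they were not taken to do so. Of 36 correlations of same-numbered deviations, from -0.36 to 0.55, 12 were above 0.1 (at most 3 of 4, for WAT EPA/DHA and low-fat), and 10 were the best of their array. With the replicate block no member passed in a diet contrast, and all probes called for corn oil against low-fat in WAT numbered 500 in place of 797. Over all probes, that count ran from 266 to 602 when 1 array was left out, and was 381 without the 2 WAT arrays with raised brown adipocyte markers. EPA/DHA against corn oil in WAT ran from 175 to 465 in place of 477, and was 289 with the liver score and 299 without those 2 arrays. The 13 for EPA/DHA against low-fat in WAT ran from 0 to 9, and was 1 with no filter, 5 with the block or the liver score, 7 with 1 fit over 24 arrays and 0 with the macrophage score. With that 1 fit the BAT counts were 137 for corn oil against low-fat, 5 for EPA/DHA against corn oil and 25 for EPA/DHA against low-fat, in place of 0, 0 and 2, and no member was among them. With the trended prior they were 11 for the first and 0 for the last. The interaction counts, 149 and 58, were 56 and 18 with the block, 55 to 149 and 34 to 74 with 1 array left out, and 96 for the first without those 2 arrays.

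These ranges crossed 0 with 1 array left out. For BAT EPA/DHA minus corn oil they were Gpc1 -0.48 to 0.017, Gpc3 -0.25 to 0.041 and Gpc4 -0.0066 to 0.10. For BAT EPA/DHA minus low-fat they were Gpc3 -0.048 to 0.069, Gpc4 -0.022 to 0.088, Sdc2 -0.026 to 0.14 and Sdc3 -0.11 to 0.044. For BAT corn oil minus low-fat they were Gpc3 -0.0078 to 0.28 and Gpc4 -0.052 to 0.022. For WAT EPA/DHA minus corn oil they were Sdc1 -0.047 to 0.0053. For WAT EPA/DHA minus low-fat they were Gpc3 -0.087 to 0.32, Gpc5 -0.036 to 0.011, Sdc3 -0.052 to 0.15 and Sdc4 -0.16 to 0.047. For WAT corn oil minus low-fat they were Gpc3 -0.31 to 0.097. For WAT minus BAT on EPA/DHA they were Gpc6 -0.027 to 0.0073. For WAT minus BAT on low-fat they were Gpc5 -0.043 to 0.072. For the tissue difference in EPA/DHA minus corn oil they were Gpc5 -0.047 to 0.0095 and Sdc1 -0.022 to 0.034. For the tissue difference in corn oil minus low-fat they were Sdc2 -0.060 to 0.094. Without the 2 WAT arrays the sign turned for Sdc2 at 0.0030 (tissue difference, corn oil minus low-fat), Sdc1 at 0.0074 (WAT EPA/DHA minus corn oil) and Sdc3 at -0.0017 (WAT EPA/DHA minus low-fat). With array weights the sign turned for Gpc4 at 0.030 (BAT corn oil minus low-fat), Sdc2 at -0.019 (BAT EPA/DHA minus low-fat) and Sdc2 at 0.057 (tissue difference, corn oil minus low-fat). With the liver score the sign turned for Sdc1 at 0.020 (WAT EPA/DHA minus corn oil) and Sdc4 at 0.013 (WAT EPA/DHA minus low-fat). With the macrophage score the sign turned for Gpc5 at -0.020 (WAT corn oil minus low-fat), Sdc1 at 0.0080 (WAT EPA/DHA minus corn oil), Gpc3 at -0.023 (WAT EPA/DHA minus low-fat) and Sdc3 at -0.041 (WAT EPA/DHA minus low-fat). At another probe the sign turned for Gpc3 at -0.22 (WAT EPA/DHA minus low-fat). At another probe the sign turned for Sdc1 at -0.033 (tissue difference, EPA/DHA minus corn oil). With the muscle score the sign turned for Gpc4 at 0.041 (BAT corn oil minus low-fat) and Gpc1 at 0.024 (BAT EPA/DHA minus corn oil).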
